A study of Mus musculus with 12 samples.

Results

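FoxO target genes are genes that FoxO transcription factors are known to switch on when growth factor signalling is low, and 10 of them were followed here: Bcl2l11, Bcl6, Ccng2, Sesn1, Sesn3, Klf2, Irs2, Txnip, Pdk4 and Fbxo32. They were found by gene symbol in the probe annotation of a mouse bead array, which gave 16 probes out of 45281, and 10 genes out of 10183 named. Only the 14461 probes that name 1 gene could be found this way, all of them among probes the authors kept in a log2 table. Each of the 16 probes was above background on at least 3 of 12 arrays, so that all 10 genes could be tested. RNA came from mouse embryonic fibroblasts (MEFs), matrix-forming cells cultured from embryos and here immortalized, in 4 groups of 3 arrays. Cells with both Rictor alleles (Rictor+/+) and cells with none (Rictor-/-) were each left untreated or given mouse interferon-alpha (IFN-alpha). IFN-alpha was used at 2500 U/ml for 24 h. The immortalization is shared by all groups, and the labels name no further allele or agent in the genotype and treatment fields. A protocol field speaks of Rictor siRNA in all samples, which does not go with a knockout, and the genotype fields were followed. The labels do not say how many cell lines stand for each genotype, so genotype cannot be told apart from differences between lines, and the cells of each genotype are called a line here. Whether a group's 3 arrays stand for separate cultures is not stated, so p-values measure only the spread between these arrays, which may be technical.

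Rictor is the defining subunit of mTORC2, the kinase complex that completes the activation of Akt and is needed for that of SGK kinases. Active Akt and SGK phosphorylate FoxO factors, which are then held in the cytoplasm by adaptor proteins, and low kinase activity lets them enter the nucleus and bind target promoters. In fibroblasts such targets slow the cell cycle, favour apoptosis, buffer oxidative stress and shift metabolism from glucose to fatty acids. The question behind the study is the role of Rictor complexes in interferon signalling and its restraint of growth. For this gene set the design gives the difference between the lines in each treatment and averaged over both. It also gives the effect of IFN-alpha in each line and the difference of these effects.

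The 4 promoters shown are the 3 with the motif that FoxO factors prefer (Bcl2l11, Txnip and Sesn1) and that of Pdk4, which differed most. They are RefSeq windows of 300 bases, from 250 before to 50 after a start site, on build GRCm38.p6, printed 5′ to 3′ along the gene. Capitals mark GTAAACA or, where it lies on the other strand, TGTTTAC. Bcl2l11 (its first annotated start) lies at chr2:128125788-128126087 on the plus strand, Txnip at chr3:96557707-96558006 on the plus strand, Sesn1 (its first annotated start) at chr10:41810324-41810623 on the plus strand and Pdk4 at chr6:5496229-5496528 on the minus strand.
Bcl2l11: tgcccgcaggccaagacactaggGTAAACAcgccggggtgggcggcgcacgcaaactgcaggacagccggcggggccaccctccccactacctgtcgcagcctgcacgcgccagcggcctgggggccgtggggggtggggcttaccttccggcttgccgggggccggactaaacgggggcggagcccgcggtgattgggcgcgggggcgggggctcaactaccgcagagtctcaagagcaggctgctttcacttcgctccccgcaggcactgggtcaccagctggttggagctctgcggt
Txnip: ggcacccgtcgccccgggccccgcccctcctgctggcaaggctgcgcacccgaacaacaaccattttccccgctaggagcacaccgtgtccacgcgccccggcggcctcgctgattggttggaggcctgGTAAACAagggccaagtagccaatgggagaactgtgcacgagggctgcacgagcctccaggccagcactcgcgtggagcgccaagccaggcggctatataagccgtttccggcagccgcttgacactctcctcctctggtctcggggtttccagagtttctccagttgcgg
Sesn1: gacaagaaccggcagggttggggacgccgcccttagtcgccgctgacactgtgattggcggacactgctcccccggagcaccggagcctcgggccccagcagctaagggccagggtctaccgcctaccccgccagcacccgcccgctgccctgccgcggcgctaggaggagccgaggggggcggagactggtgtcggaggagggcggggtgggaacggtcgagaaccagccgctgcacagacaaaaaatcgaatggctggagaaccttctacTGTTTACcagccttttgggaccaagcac
Pdk4: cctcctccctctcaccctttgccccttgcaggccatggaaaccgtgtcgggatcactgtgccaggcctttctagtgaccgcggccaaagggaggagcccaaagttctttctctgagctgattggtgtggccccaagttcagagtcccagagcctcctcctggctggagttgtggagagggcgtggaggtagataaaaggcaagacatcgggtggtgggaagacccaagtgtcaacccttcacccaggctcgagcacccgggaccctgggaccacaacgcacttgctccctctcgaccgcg
The motif began at base 24 of the Bcl2l11 window and at base 130 of the Txnip window, and lay on the reverse strand at bases 273 to 279 of the Sesn1 window. It was not in these letters of the Pdk4 window. Nor was it in the window of Klf2 or the second windows of Bcl2l11 and Sesn1, which are not shown. Windows were given for 9 of the 10 members, 12 windows in all, and GTAAACA on either strand was in those of 3 members, Bcl2l11, Txnip and Sesn1. Of all 32851 mouse promoter windows of this length, 3.65% held it. A second FoxO motif, CAAAACA, was in the windows of Ccng2 and Irs2 and in 6.28% of all windows. Members were counted as genes, some with 2 windows, while the percentages count single windows, so these are unlike measures. A match is a stretch of letters, not a shown binding site.

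Values are normalized log2 intensities, and a difference is the log2 change ± its standard error (SE) from a limma model over all 12 arrays. The threshold for a call was an adjusted p of 0.05 (Benjamini-Hochberg over 22257 probes). Where a gene had several probes, the brightest stood for it in counts. The Rictor probe itself was close to background, with group means between 6.07 ± 0.94 (SD, n = 3; IFN-treated Rictor-/-) and 6.57 ± 0.36 (untreated Rictor-/-). Where it lies in the gene is not given in the sources used here, so it cannot check the labels. Total signal was 39160400 to 62338100 on 11 arrays and 21292300 on array 12, an IFN-treated Rictor-/- array. The background level split the arrays into 6 of high background (modes 206.3 to 236.2; 4 Rictor+/+ and 2 Rictor-/- arrays) and 6 of low background (105.0 to 124.1; 2 Rictor+/+ and 4 Rictor-/-). The first set was arrays 1 to 6 and the second arrays 7 to 12, so the background level went with the array number in the labels. Arrays 3 and 4 were the only untreated and treated Rictor-/- arrays of the first set. Arrays 9 and 10 were the only untreated and treated Rictor+/+ arrays of the second. A call lost within a set therefore rests on few arrays per group and cannot show whether a result depends on the set. All 10 fibroblast markers were above background on every array, and their summed intensity was 99829 to 143887 in untreated and 79996 to 111433 in treated Rictor+/+ cells, against 81381 to 107160 and 67397 to 87804 in Rictor-/- cells. Averaged over treatment, 5 of the 10, collagens among them, were lower and 2 higher in Rictor-/- cells. Of 25 markers of other cell types 7 were annotated, and none was above background on all arrays of any group. Epcam, Lyz2 and Acta1, markers of epithelial, blood and muscle cells, were above it on 0 of 12 arrays, the adipocyte genes Lep and Adipoq on 1 and 2, the endothelial gene Kdr on 3 and the T cell gene Cd3e on 7. Kdr and Cd3e could be tested and were not called averaged over treatment (0.25 ± 0.27, adjusted p = 0.547, and -0.62 ± 0.24, adjusted p = 0.0696). The part of these marker levels in the results below was not tested. All 8 interferon check genes tested rose in both lines.

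**Figure D1:**
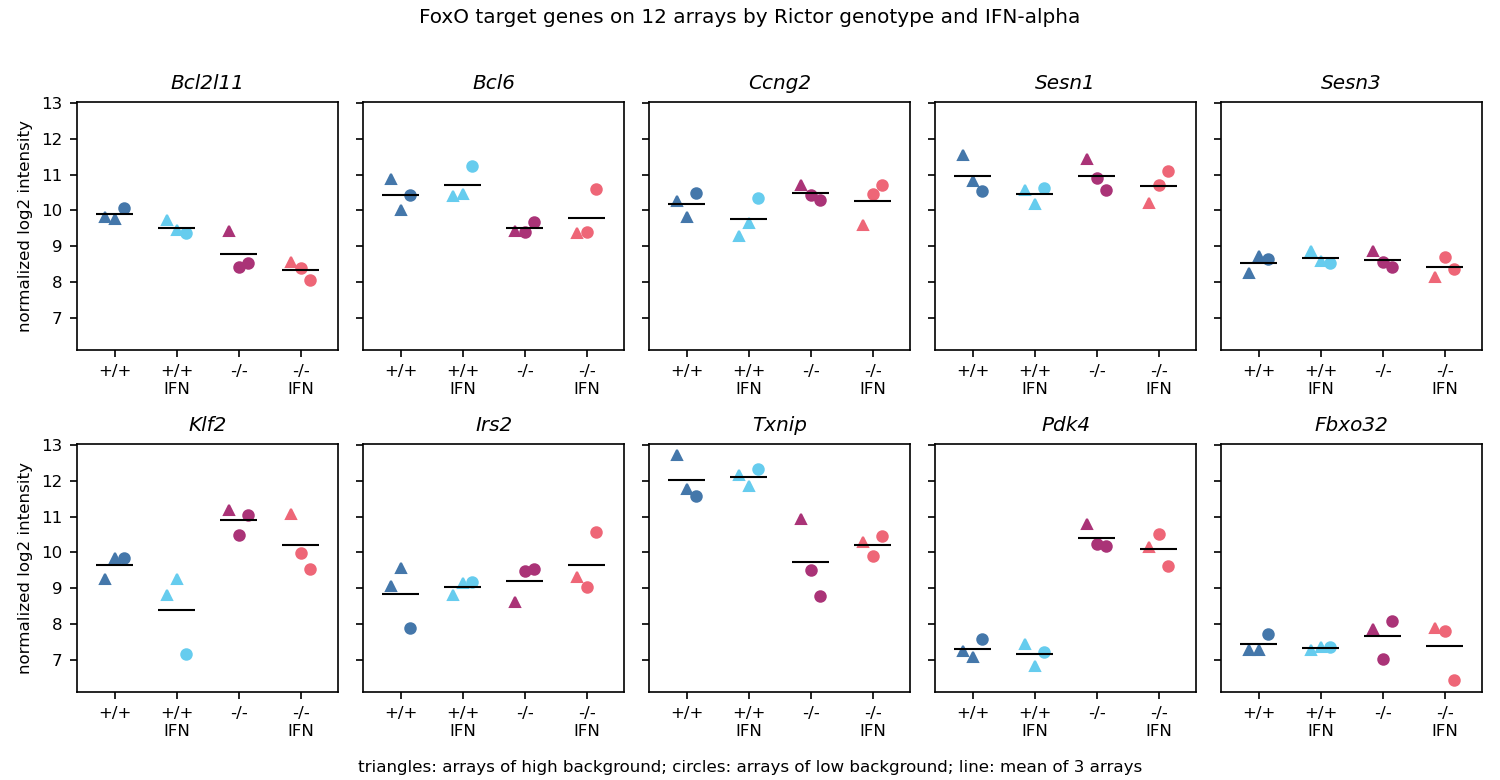
Normalized log2 intensity of the 10 FoxO target genes (brightest probe of each) on the 12 arrays, by Rictor genotype and IFN-alpha; points are arrays, triangles those of high and circles those of low background, and lines are means of 3 arrays. Pdk4 lies between 6.83 and 7.59 on the Rictor+/+ arrays and between 9.63 and 10.78 on the Rictor-/- arrays, and Txnip shows the opposite order.

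Between the lines, averaged over treatment, Pdk4 and Klf2 were higher in Rictor-/- cells, Txnip, Bcl2l11 and Bcl6 were lower, and the other 5 members, Ccng2, Sesn1, Sesn3, Irs2 and Fbxo32, were not called. The set thus held 2 members that rose and 3 that fell, and its changes ran from -2.09 for Txnip to 3.01 for Pdk4. Of all 8411 named genes tested, 19.0% were called higher and 22.7% lower in this comparison, so being called was common in these lines. In RNA from whole cultures, a change in the share of cells that express a gene and a change per cell cannot be told apart. The median change over the 10 members was 0.12, against -0.04 over all named genes. In untreated cells 1 member was higher (Pdk4) and 2 lower (Bcl2l11, Txnip), against 10.6% and 11.7% of all named genes. Under IFN-alpha 2 were higher (Pdk4, Klf2) and 2 lower (Bcl2l11, Txnip), against 11.4% and 15.2%. The members' medians were 0.15 and 0.13 in these comparisons, and those of all named genes -0.04 in each. Both single-treatment comparisons enter the average, so the 3 are not independent. Scaling arrays by their medians in place of quantile normalization moved the median of all named genes to -0.25 under IFN-alpha and the split of calls there from 956 higher and 1276 lower to 453 higher and 1279 lower.

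**Figure D2:**
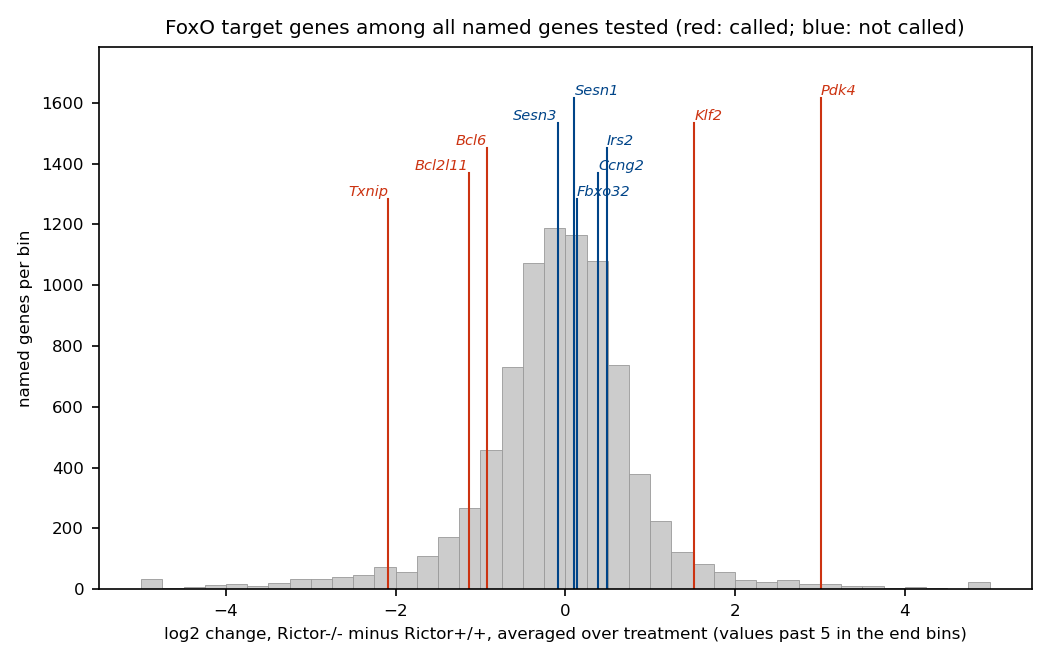
Log2 change between Rictor-/- and Rictor+/+ cells averaged over treatment, on the horizontal axis, for 8411 named genes, as a histogram of genes per bin; vertical lines mark the 10 FoxO target genes, red where called and blue where not. The called members stand on both sides of 0, from -2.09 (Txnip) to 3.01 (Pdk4), and the 5 others lie between -0.09 and 0.49.

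Among the metabolic members, Pdk4 encodes a pyruvate dehydrogenase kinase, which switches off pyruvate dehydrogenase and so spares glucose when fatty acids are burned. Its log2 intensity was 7.26, 7.08 and 7.59 on the untreated Rictor+/+ arrays and 7.44, 6.83 and 7.23 with IFN-alpha. On the Rictor-/- arrays it was 10.78, 10.23 and 10.18 untreated and 10.15, 10.52 and 9.63 with IFN-alpha. Every Rictor-/- array was above every Rictor+/+ array, and within a line the treatments overlapped. The means were 7.31 ± 0.26 (SD, n = 3) and 7.17 ± 0.31 in Rictor+/+ against 10.40 ± 0.33 and 10.10 ± 0.45 in Rictor-/- cells. The difference was 3.09 ± 0.28 in untreated cells (8.50-fold, adjusted p = 5.02e-06) and 2.93 ± 0.28 under IFN-alpha (7.65-fold, adjusted p = 6.34e-06), and 3.01 ± 0.20 averaged (8.06-fold, adjusted p = 9.70e-08). In the log2 table that the authors deposited, whose normalization is not stated, the averaged difference was 2.11. Pdk4 was thus the member with the largest difference between lines in all 3 genotype comparisons.

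Txnip encodes thioredoxin-interacting protein, an arrestin-like protein that restrains glucose uptake and binds thioredoxin, and both of its probes were lower in Rictor-/- cells. The brighter probe read 12.72, 11.76 and 11.57 on untreated and 12.16, 11.85 and 12.33 on IFN-treated Rictor+/+ arrays. It read 10.92, 9.52 and 8.78 on untreated and 10.29, 9.91 and 10.45 on IFN-treated Rictor-/- arrays. No Rictor-/- array reached the lowest Rictor+/+ array, while the untreated Rictor-/- arrays spread widely (9.74 ± 1.09, SD, n = 3). The change was -2.28 ± 0.45 in untreated cells (4.85-fold lower, adjusted p = 0.00388) and -1.90 ± 0.45 under IFN-alpha (3.73-fold lower, adjusted p = 0.0102). Averaged, it was -2.09 ± 0.32 (4.25-fold lower, adjusted p = 0.000274), and the dimmer probe gave -1.81 ± 0.27 (3.51-fold lower, adjusted p = 0.000228). The dimmer probe too kept the lines apart, at 10.24 to 11.43 on Rictor+/+ arrays and 8.32 to 9.95 on Rictor-/- arrays.

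Irs2, an adaptor that links insulin and IGF receptors to PI3 kinase, was not called. It read 9.07, 9.57 and 7.90 on untreated and 8.81, 9.14 and 9.16 on IFN-treated Rictor+/+ arrays, against 8.63, 9.47 and 9.55 and 9.33, 9.03 and 10.58 in Rictor-/- cells. All 4 groups overlapped in these readings. The averaged difference was 0.49 ± 0.32, with a 95% interval from -0.21 to 1.18, and was -0.17 within the arrays of high and 1.13 within those of low background.

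Bcl2l11 encodes Bim, a BH3-only protein that triggers mitochondrial apoptosis, and was lower in Rictor-/- cells by the 2 probes that lay clear of background. The brightest probe read 9.81, 9.77 and 10.08 on untreated and 9.72, 9.47 and 9.37 on IFN-treated Rictor+/+ arrays. In Rictor-/- cells it read 9.42, 8.41 and 8.54 untreated and 8.57, 8.40 and 8.06 with IFN-alpha. Within each treatment the lines did not overlap, although untreated Rictor-/- array 3, at 9.42, exceeded the lowest IFN-treated Rictor+/+ array. By mean, untreated Rictor+/+ cells were highest (9.89 ± 0.17, SD, n = 3), then treated Rictor+/+ (9.52 ± 0.18), then untreated (8.79 ± 0.55) and treated Rictor-/- cells (8.34 ± 0.26), and the last 3 groups each overlapped their neighbour in this order. The change between lines was -1.10 ± 0.27 untreated (2.14-fold lower, adjusted p = 0.0149), -1.18 ± 0.27 with IFN-alpha (2.26-fold lower, adjusted p = 0.00838) and -1.14 ± 0.19 averaged (2.20-fold lower, adjusted p = 0.000585). A second probe gave -1.15 ± 0.23 averaged (adjusted p = 0.00218). The third probe was above background on 3 of 12 arrays in all, 1 in each group except IFN-treated Rictor-/- cells, and was not called (-0.34 ± 0.24, adjusted p = 0.341). The untreated call was lost without array 7 (-0.91, adjusted p = 0.0767), 11 (-0.97, adjusted p = 0.0694) or 9 (adjusted p = 0.0547). Within the arrays of high background the averaged change was -0.70 ± 0.24 and not called (adjusted p = 0.111), and within those of low background it was -1.37 ± 0.25.

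Bcl6 and Klf2 encode transcription factors, a zinc finger repressor of lymphocyte and inflammatory genes and a Krüppel-like factor that keeps cells quiescent. Bcl6 read 10.89, 10.01 and 10.42 on untreated and 10.41, 10.47 and 11.24 on IFN-treated Rictor+/+ arrays. In Rictor-/- cells it read 9.42, 9.41 and 9.68 untreated and 9.37, 9.39 and 10.59 with IFN-alpha. Untreated lines did not overlap, and under IFN-alpha only array 12, at 10.59, lay among the Rictor+/+ arrays. Averaged over treatment Bcl6 fell by 0.93 ± 0.25 on the log2 scale (1.90-fold lower, adjusted p = 0.0133). Neither single treatment reached the threshold (-0.93 ± 0.35, adjusted p = 0.0996 untreated; -0.92 ± 0.35, adjusted p = 0.0936 with IFN-alpha). Without array 12, whose total signal was the lowest, both did (-0.93, adjusted p = 0.0340, and -1.32, adjusted p = 0.0102).

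Klf2 read 9.25, 9.86 and 9.85 on untreated and 8.80, 9.25 and 7.17 on IFN-treated Rictor+/+ arrays, and 11.17, 10.48 and 11.04 and 11.06, 10.00 and 9.53 on the corresponding Rictor-/- arrays. Within each treatment every Rictor-/- array was above every Rictor+/+ array. Averaged over treatment the difference was 1.52 ± 0.35 (2.86-fold, adjusted p = 0.00525). Under IFN-alpha it was 1.79 ± 0.49 (3.46-fold, adjusted p = 0.0230), and in untreated cells it was 1.24 ± 0.49 and not called (adjusted p = 0.117). The call under IFN-alpha rested on array 10, the lowest Rictor+/+ reading, and array 4, the highest Rictor-/- reading. It was 1.17 without array 10 (adjusted p = 0.0758) and 1.36 without array 4 (adjusted p = 0.0943). It was also lost under median scaling (1.43, adjusted p = 0.0852), whereas untreated cells were called without array 10 (1.24, adjusted p = 0.0395).

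The growth-arrest and stress members were not called between lines. Ccng2 encodes an unusual cyclin that slows the cell cycle, and its groups overlapped, with means of 10.19 ± 0.35 (SD, n = 3) and 9.76 ± 0.54 in Rictor+/+ against 10.47 ± 0.22 and 10.25 ± 0.60 in Rictor-/- cells. Its averaged difference was 0.39 ± 0.24 (95% interval -0.13 to 0.90, adjusted p = 0.258). Sestrins dampen mTORC1 and oxidative stress, and Sesn1 was read by 3 probes. The brightest had means of 10.97 ± 0.52 and 10.45 ± 0.24 in Rictor+/+ against 10.96 ± 0.43 and 10.68 ± 0.44 in Rictor-/- cells, and a difference of 0.11 ± 0.23 (95% interval -0.38 to 0.59). The second, slightly dimmer probe gave 0.34 ± 0.15 (adjusted p = 0.110), and the dimmest, which was not above background on 3 arrays, -0.18 ± 0.28. Sesn3 was the most even member, with means between 8.42 and 8.67 in the 4 groups and a difference of -0.09 ± 0.16 (95% interval -0.44 to 0.26).

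Fbxo32 encodes atrogin, a ubiquitin ligase subunit that drives muscle wasting, and was read by 2 dim probes on these fibroblast arrays. Its brighter probe had means of 7.43 ± 0.26 (SD, n = 3) and 7.33 ± 0.06 in Rictor+/+ against 7.66 ± 0.57 and 7.38 ± 0.82 in Rictor-/- cells, and lay below background on array 12. The averaged difference was 0.14 ± 0.26 by this probe and 0.03 ± 0.24 by the other, and neither was called. The sign of the brighter probe differed between the arrays of high background (0.59) and of low background (-0.22).

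**Figure D3:**
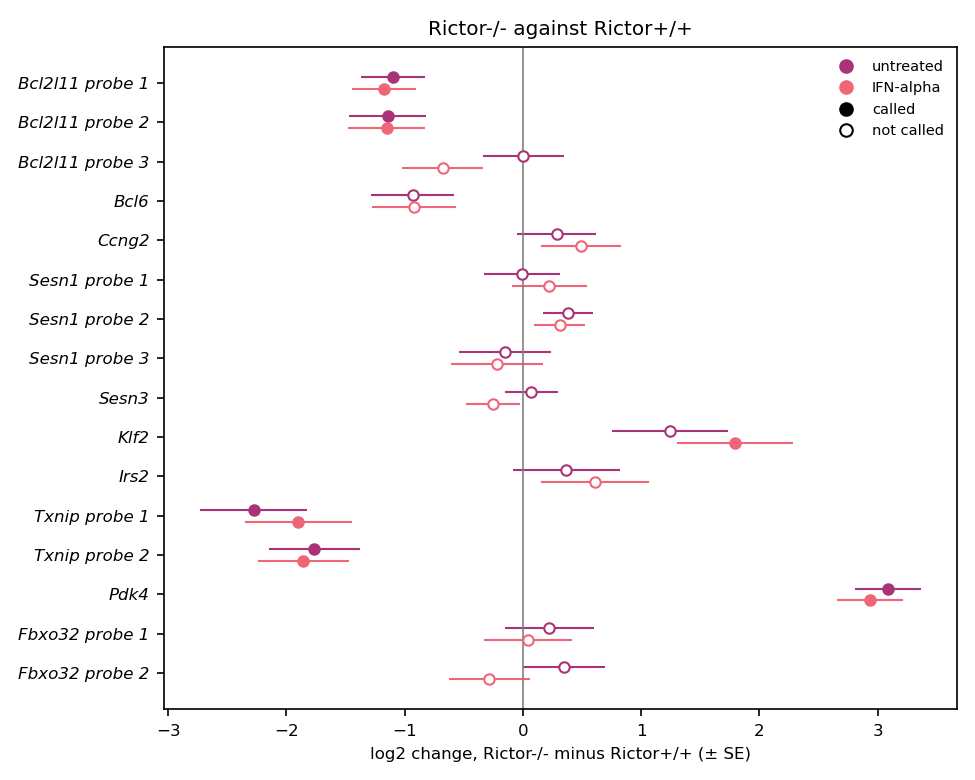
Log2 change between Rictor-/- and Rictor+/+ cells (horizontal axis, ± SE) for each of the 16 member probes, in untreated and in IFN-treated cells; filled points were called and open points were not. Pdk4 lies at 3.09 and 2.93 and the brighter Txnip probe at -2.28 and -1.90 in both treatments, and Klf2 was called under IFN-alpha but not in untreated cells.

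The called members were compared within each set of arrays, since background level and genotype overlap in part. Of the 16 probes, 13 had the same sign in both sets, the exceptions being Irs2 and both Fbxo32 probes. Pdk4 was 3.31 ± 0.27 in the set of high and 2.73 ± 0.32 in that of low background, and Klf2 was 1.83 ± 0.29 and 1.75 ± 0.29. Bcl6 was -1.04 ± 0.31 and -1.06 ± 0.38 and was called in neither set (adjusted p = 0.0705 and 0.165). The brighter Txnip probe was -1.52 ± 0.33 and -2.29 ± 0.32. The direction of every called member was thus the same in both sets, as each set had entered the call. With the set as a block in the model, Pdk4 was 3.02, Klf2 1.79, Txnip -1.90, Bcl2l11 -1.04 and Bcl6 -1.05.

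**Figure D4:**
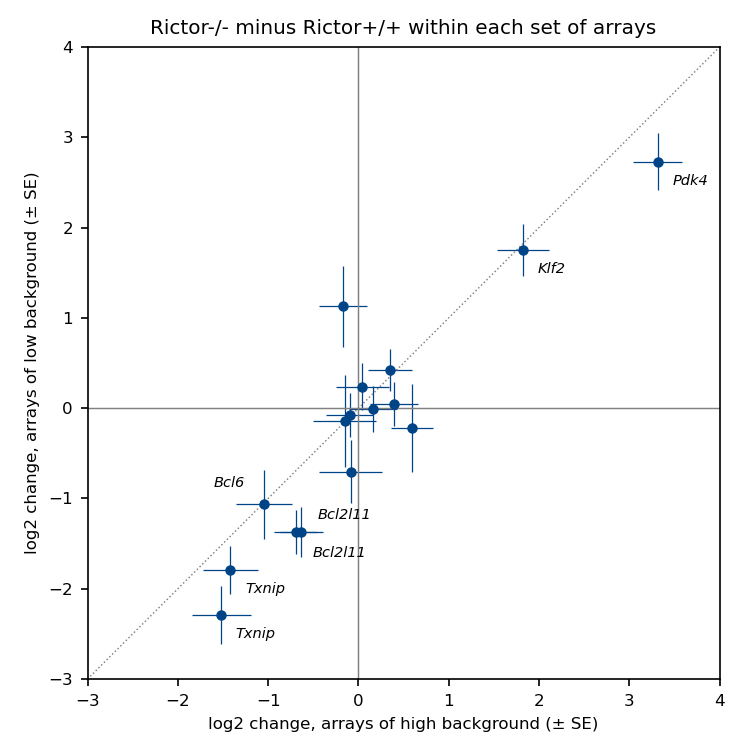
Log2 change between Rictor-/- and Rictor+/+ cells averaged over treatment (± SE) for the 16 member probes, within the 6 arrays of high background (horizontal axis) and the 6 of low background (vertical axis); the dotted line marks equal values. Pdk4 and Klf2 lie at the upper right, Txnip, Bcl2l11 and Bcl6 at the lower left, and Bcl2l11 is closer to 0 in the set of high background.

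IFN-alpha called no member in either line by limma. In Rictor+/+ cells 0 of 10 genes were called, against 3.42% of all named genes called higher and 0.523% lower, and at an unadjusted p under 0.05 there was 1, Klf2, against 12.2% of all named genes. In Rictor-/- cells 0 of 10 were called, against 1.26% and 0.0357%, and 0 had an unadjusted p under 0.05, against 7.04%. These counts take the brightest probe of each gene. Of all 16 probes, 2 had an unadjusted limma p under 0.05 in each line. They were Klf2 and the second Sesn1 probe in Rictor+/+, and the third Bcl2l11 probe and the second Sesn1 probe in Rictor-/- cells. That Bcl2l11 probe, close to background, averaged 5.97 untreated and 5.09 with IFN-alpha in Rictor-/- cells. The member median was -0.12 in Rictor+/+ and -0.25 in Rictor-/- cells, beside -0.05 and -0.04 over all named genes. Klf2 was 9.65 ± 0.35 (SD, n = 3) untreated and 8.41 ± 1.10 with IFN-alpha in Rictor+/+ cells, where arrays of both treatments shared a reading of 9.25, a change of -1.25 ± 0.49 (adjusted p = 0.381). Without array 10, which read 7.17, this change was -0.63 (adjusted p = 0.752). Its change in Rictor-/- cells was -0.70 ± 0.49 (adjusted p = 0.808). The second Sesn1 probe read 10.52, 10.42 and 10.49 without and 10.20, 9.90 and 9.69 with IFN-alpha in Rictor+/+ cells, and 11.16, 10.77 and 10.63 against 10.06, 10.38 and 10.28 in Rictor-/- cells. Every treated array lay below every untreated array of its line. The changes were -0.55 ± 0.21 (adjusted p = 0.368) and -0.62 ± 0.21 (adjusted p = 0.548), and the brightest Sesn1 probe, whose groups overlapped, gave -0.52 ± 0.32 and -0.29 ± 0.32.

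The estimated effect of IFN-alpha on Pdk4 was -0.15 ± 0.28 in Rictor+/+ and -0.30 ± 0.28 in Rictor-/- cells, that on Txnip 0.10 ± 0.45 and 0.48 ± 0.45, and that on Bcl2l11 -0.37 ± 0.27 and -0.45 ± 0.27. None of these passed the test, and the 95% interval for Pdk4 in Rictor+/+ cells ran from -0.75 to 0.46. Across the 10 genes the estimates lay between -1.25 and 0.27 in Rictor+/+ and between -0.70 and 0.48 in Rictor-/- cells. The difference of the IFN-alpha effects between lines called 0 of 10 members, against 0.0357% of all named genes higher and 0.678% lower. At an unadjusted p under 0.05 there were 0 of 10, against 6.67% of all named genes. Its estimates ran from -0.33 for Sesn3 to 0.55 for Klf2, with a member median of 0.11 against -0.01 over all named genes. The Klf2 value turned to -0.07 without array 10 (adjusted p = 0.979). For Pdk4 the difference was -0.15 ± 0.39, and for Txnip it was 0.38 ± 0.64, with a 95% interval from -1.01 to 1.76.

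**Figure D5:**
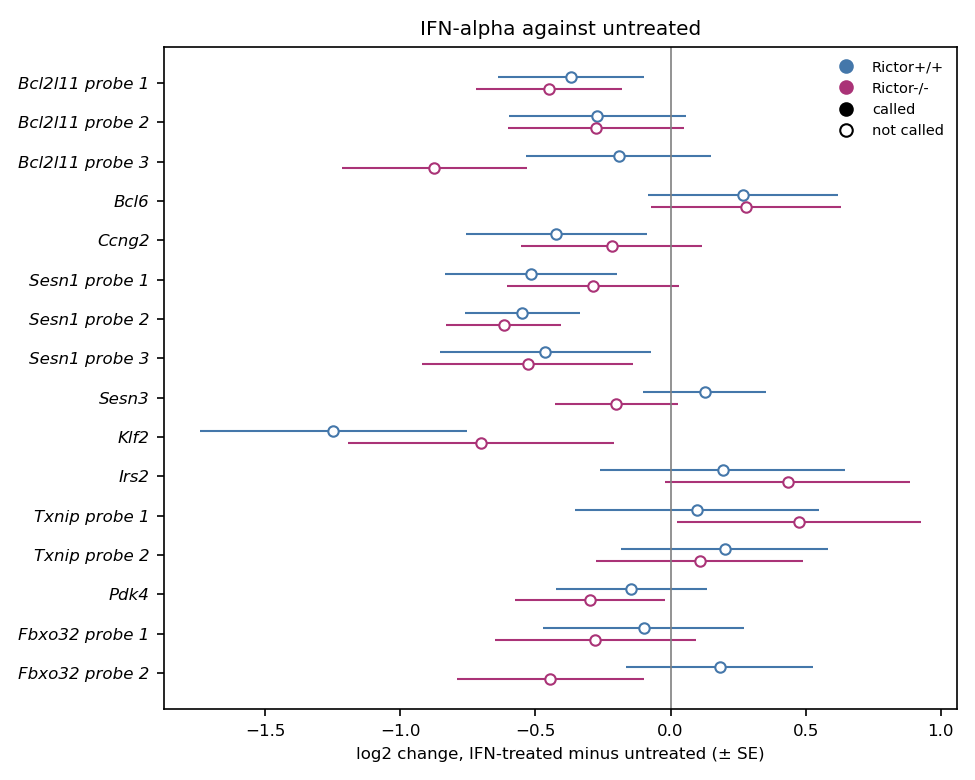
Log2 change between IFN-treated and untreated cells (horizontal axis, ± SE) for each of the 16 member probes, in Rictor+/+ and in Rictor-/- cells. All points are open, that is, not called, and the Klf2 point in Rictor+/+ cells, at -1.25, lies farthest from 0.

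The named genes whose pattern over the 12 arrays was closest to that of each called member were found by the root mean square distance between centred log2 values, among 8401 other genes. For Pdk4 these were Cadm1 (0.144) and Rnf130 (0.224), against a median distance of 1.61 over all candidates. For the brighter Txnip probe they were Adssl1 (0.284) and Jmjd8 (0.304), and Jmjd8 was also the second closest to the dimmer probe (0.262), after Acot11 (0.250). Bcl2l11 was closest to Rrad (0.192) and Fblim1 (0.193) by its brightest probe and to Bmp4 (0.241) and Abat (0.241) by its second. Klf2 was closest to Rhob (0.378) and Man1a (0.434), and Bcl6 to Flcn (0.179) and Lrrc59 (0.184). These are descriptions over 12 arrays that share their lines and array sets.

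The FoxO factors themselves gave little signal, since Foxo1 and Foxo6 were the annotated ones and neither was above background on any array. Foxo1 read 4.50 to 5.01 over the 12 arrays. Foxo3 and Foxo4 were not analysed here. Among the upstream and modifying factors, 19 of 25 were tested, and averaged over treatment 4 were higher and 4 lower in Rictor-/- cells, beside 19.0% and 22.7% of all named genes. Sgk1, a kinase that phosphorylates FoxO factors and depends on mTORC2, read 11.76 to 12.35 on Rictor+/+ and 14.28 to 14.74 on Rictor-/- arrays, a difference of 2.54 ± 0.14 (5.82-fold, adjusted p = 1.68e-08). Mtor was 1.16 ± 0.14 and the deacetylase Sirt1 0.74 ± 0.16 higher. Mlx, the partner through which Mondo factors drive Txnip and Arrdc4 in response to glucose, changed by -1.29 ± 0.27 (adjusted p = 0.00293), and Pik3r1, a PI3 kinase regulatory subunit, by -0.76 ± 0.16. The averaged calls of Mtor, Mlx and Sirt1 were lost within the arrays of low background, and that of Pik3r1 within either set. Sirt1 also lost its call under median scaling. With IFN-alpha Mlxip, which encodes such a Mondo factor, rose in Rictor+/+ cells by 1.03 ± 0.23 (adjusted p = 0.0286). It was the 1 gene of this list called there, beside 3.42% of all named genes called higher. The Mlxip call was lost without array 2, 5, 6 or 9 (adjusted p between 0.0711 and 0.169), under median scaling (adjusted p = 0.255) and within either set of arrays. In the set of high background Mlxip read 8.59 and 8.19 on untreated and 9.64 and 9.21 on treated Rictor+/+ arrays. In that of low background it read 8.14 on untreated array 9 and 9.16 on treated array 10. In Rictor-/- cells Mlxip changed by -0.08 ± 0.23, and the difference of the responses was not called (-1.10 ± 0.33, adjusted p = 0.405).

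Of the relatives of the members, 22 of 31 were tested, and averaged over treatment 6 were higher and 5 lower in Rictor-/- cells, beside 19.0% and 22.7% of all named genes. IFN-alpha called 0 of the 22 in either line by limma, against 3.42% of all named genes higher and 0.523% lower in Rictor+/+ and 1.26% and 0.0357% in Rictor-/- cells. Arrdc4, the arrestin relative of Txnip, fell with it, at 10.35 to 11.16 on Rictor+/+ and 8.57 to 9.61 on Rictor-/- arrays (-1.77 ± 0.22, 3.42-fold lower, adjusted p = 4.65e-05). Arrdc2 and Arrdc3 were not analysed here. Bmf, a BH3-only relative of Bcl2l11, was above background on no IFN-treated Rictor-/- array and was at least 1.61-fold lower there than in IFN-treated Rictor+/+ cells (adjusted p = 0.00188). Pdp1, the phosphatase that opposes Pdk4 on pyruvate dehydrogenase, changed by -0.99 ± 0.22 (adjusted p = 0.00374). Klf5 changed by -1.11 ± 0.17 and Fbxo9 by 1.06 ± 0.17. The averaged call of Pdp1 was lost within either set of arrays and that of Fbxo9 within those of low background. The call of Bmf under IFN-alpha was also lost within those of low background.

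Of 51 other known FoxO targets, 32 were tested, and averaged over treatment 8 were higher and 5 lower in Rictor-/- cells, with a median of 0.16. The shares over all named genes were 19.0% and 22.7%, so nothing particular to this list is read from its counts. Klf4, a Krüppel-like factor, was 1.75 ± 0.23 higher (adjusted p = 6.57e-05) and Pmaip1, which encodes the BH3-only protein Noxa, 1.63 ± 0.16 higher (adjusted p = 5.06e-06). The Klf4 call was lost within the arrays of low background. Ccnd1, a cyclin gene that FoxO factors are known to repress, was 1.30 ± 0.16 higher. This list thus mixes genes that FoxO factors repress with genes they switch on, and FoxO activity was not tested. Sesn2, the stress-induced relative of Sesn1 and Sesn3, was lower by its brighter probe, at 7.80 to 8.92 on Rictor+/+ and 6.32 to 7.74 on Rictor-/- arrays (-1.30 ± 0.27, adjusted p = 0.00283). That call was lost within the arrays of high background. The dimmer Sesn2 probe changed by -0.68 ± 0.26 and was not called (adjusted p = 0.0694). Ppargc1a was above background on 5 of 6 Rictor+/+ arrays and on no Rictor-/- array (averaged over treatment, adjusted p = 0.000180). With the Rictor-/- arrays taken at the background limit, the drop was at least 1.09-fold without IFN-alpha. With IFN-alpha the Rictor+/+ mean did not exceed that limit (-0.046 on the log2 scale), so no smallest fold can be given. The averaged call for Ppargc1a was lost within the arrays of high background. Cdkn1b was above background on too few arrays to be tested, and Ccng1, Trim63 and Irs1 were not analysed here.

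In Rictor+/+ cells IFN-alpha raised 2 of these 32 genes, Tnfsf10 and Pik3ip1, and in Rictor-/- cells 0 by limma. Of all named genes, 3.42% were called higher in Rictor+/+ and 1.26% in Rictor-/- cells. Nothing particular to this list is read from these counts. Pik3ip1, an inhibitor of PI3 kinase, read 8.18, 8.20 and 8.06 untreated and 9.70, 9.33 and 9.40 with IFN-alpha in Rictor+/+ cells (1.33 ± 0.30, adjusted p = 0.0296). In Rictor-/- cells it was 9.13 ± 0.56 (SD, n = 3) untreated and 8.55 ± 0.48 with IFN-alpha (-0.58 ± 0.30, adjusted p = 0.775). The difference of these responses was -1.91 ± 0.42 and not called (adjusted p = 0.107). The call in Rictor+/+ cells was lost without any 1 of the 6 Rictor+/+ arrays, with adjusted p between 0.0724 and 0.156. Between lines Pik3ip1 was 0.99 ± 0.30 higher in untreated Rictor-/- cells (adjusted p = 0.0422) and changed by -0.92 ± 0.30 under IFN-alpha (adjusted p = 0.0498), and these opposite differences averaged to 0.03 ± 0.21. The first call was lost in 9 of the 12 fits without 1 array (adjusted p up to 0.158) and the second in 10 (adjusted p up to 0.162). Tnfsf10, which encodes the death ligand TRAIL, changed with IFN-alpha by 1.60 ± 0.33 in Rictor+/+ cells (adjusted p = 0.0171), from a level above background on 1 of 3 untreated arrays, and lost that call without array 2 (adjusted p = 0.105) or 5 (adjusted p = 0.101) and within either set of arrays. Its second probe was above background on the 3 IFN-treated Rictor+/+ arrays alone. It was at least 1.43-fold higher there than in untreated Rictor+/+ cells (adjusted p = 0.00222). That call held without any 1 array but was lost within either set of arrays, which hold few arrays of each treatment. This probe read 4.85 and 4.85 on the untreated and 6.89 and 6.12 on the treated Rictor+/+ arrays of high background. In the set of low background it read 4.93 on untreated array 9 and 6.87 on treated array 10. In Rictor-/- cells the brighter probe changed by -0.38 ± 0.33, and the difference of the responses was not called for it (-1.98 ± 0.47, adjusted p = 0.158) or for the second probe (adjusted p = 0.140).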

How the data were processed

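Biotin-labelled total RNA of 12 MEF samples was measured on Illumina mouse BeadChips, 1 array a sample. The non-normalized table that the authors deposited gives intensity, the average bead signal per probe on a linear scale, made with BeadStudio per the submitters' processing notes, with no version stated. It holds no detection p-values, control probes or background subtraction. The authors also deposited log2 values of 17003 probes whose normalization and selection are not stated. Genes were named through GEO's platform annotation, in which 14461 probes name 1 gene, all of them in that log2 table, so shares over named genes cover only probes the authors kept there.

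Intensities were processed in R 4.3.3 with limma 3.58.1. The signal mode of an array served as its background, and the signals under it gave the SD. Normexp correction (offset 16), quantile normalization and log2 followed, which makes all arrays alike in distribution and hides any shift common to most genes. A probe was above background at an upper-tail probability under 0.01, and probes above it on at least 3 of 12 arrays were kept (22257). Group means were fitted over all arrays in limma (8 residual and 4.85 prior degrees of freedom), which gave 6 comparisons, two-sided, with Benjamini-Hochberg adjustment. The number of arrays limits the precision. Pairs of arrays of a group correlated at 0.952 to 0.989 over kept probes, and no pair had the same intensities. Promoter windows came from RefSeq and were matched by symbol. The scripts were tested on simulated data.

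The members and gene lists were chosen with earlier results of these data known. All member probes are named, with called genes of the lists (at most 5 of largest change per list and comparison), a few relatives fixed by name, and the 2 genes closest to each called member. Alternatives were other background corrections, normalizations, filters and weights, the deposited log2 values, the background sets, leaving out each array and, added after seeing the data, runs of consecutive array numbers as a block.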

Additional observations from a re-analysis of the deposited data

How the results depend on the processing

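The groups share no replicate number in the labels, but the array numbers fall into 3 runs of 4 (1 to 4, 5 to 8, 9 to 12), each with 1 array of every group. With these runs as a replicate block, an alternative chosen after seeing the data, 0 members were called for IFN-alpha in either line or the difference, 3 in untreated cells, 4 under IFN-alpha and 5 averaged, the same genes as without the block. The labels do not call the runs a batch, and of 18 pairs of arrays within a run 9 had deviations from their group means that correlated above 0.1 (range -0.32 to 0.53). Of pairs from different runs, so did 6 of 24 across background sets and 5 of 12 within a set. Whether the runs are batches was not tested. The number of members called in untreated cells (3), under IFN-alpha (4) and averaged over treatment (5) stayed within 1.5 times of these counts except within sets of arrays. Within the arrays of high background it was 1 (Pdk4), 2 (Klf2, Pdk4) and 3 (Klf2, Pdk4, Txnip). Within those of low background it was 1 (Pdk4) in untreated cells and 2 (Klf2, Pdk4) under IFN-alpha, and 4 averaged, where Bcl6 lost its call. These fits have fewer arrays. Shares over all named genes are not set beside these counts, so nothing particular to the members is read from them. No called member value changed sign under any setting run. Over all settings the averaged difference of Pdk4 ran from 2.11 to 3.31, that of Klf2 from 1.17 to 1.83, that of Bcl6 from -1.13 to -0.79, that of the brightest Bcl2l11 probe from -1.37 to -0.70 and that of the brighter Txnip probe from -2.38 to -1.52. Of the 1152 member values with 1 array left out, 13 lost a call and 3 gained one, and 80 uncalled values changed sign. Of the 1206 under other settings, 23 lost and 8 gained a call. Bcl2l11 in untreated cells also lost its call under median scaling (adjusted p = 0.0815). The call of Bcl6 was gained in both treatments with the deposited values (adjusted p = 0.0414 and 0.0294). Klf2 in untreated cells was called with the array set as a block (adjusted p = 0.0295). List counts moved more: averaged over treatment, the 8 other FoxO targets called higher ran from 3 to 14 and the 5 lower from 2 to 8, the 6 and 5 relatives from 0 to 7 and from 2 to 6, and the 4 and 4 upstream factors from 1 to 7 and from 0 to 4. The cause was not tested.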
